A study of Mus musculus with 64 samples.

Results

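Hippocampal RNA from *Cyfip2* Arg87Cys knock-in (KI) mice was compared with that of wild-type (WT) littermates at postnatal week (PWK) 14, to ask which functions and gene families differ in a mouse model of a developmental epilepsy. The comparison took 8 of the 64 RNA-seq libraries of the series by their labels, 4 from KI and 4 from WT hippocampus, and all 18405 of 18432 genes that had a mean normalized value of at least 1 in these 8 libraries. The KI mice are heterozygous for a germline change of residue 87 of CYFIP2 from arginine to cysteine, present in every cell and from the start of life, and both genotypes were on the C57BL/6N background. The study describes KI mice of this age as having spontaneous seizures, and the labels do not say when each mouse last had one. Hippocampi of both hemispheres of 1 mouse made up 1 library, kept overnight in RNAlater before extraction, and all brains were taken in the same window of the light phase. Frontal cortex from the same ages, and hippocampus at PWK 1, 7 and 28, with 4 KI and 4 WT libraries each, are used below only to show where the PWK 14 hippocampus differs.

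CYFIP2 is a subunit of the WAVE regulatory complex, which holds the actin-nucleating machinery inactive until the small GTPase Rac1 releases it, and which shapes dendritic spines and axons. The hippocampus is a chain of excitatory neurons, from dentate granule cells through CA3 to CA1 pyramidal cells, restrained by GABAergic interneurons. After seizures, this tissue is known to induce immediate early genes, neurotrophins and neuropeptides, to change its ion channels, and to show reactive astrocytes and microglia.

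At PWK 14, limma's test called 2870 genes (15.6% of those tested) at an adjusted p under 0.05 (Benjamini-Hochberg, over all genes). Of these, 1407 genes (7.64%) were higher in KI mice and 1463 (7.95%) were lower, and the 4 KI values lay wholly above or below the 4 WT values for 4381 genes (23.8%). Leaving out WT replicate 1, 2 or 4 lowered the count of called genes to 1456, 1529 and 1559. A fold change is given throughout as KI over WT on the log2 scale after adding 1 to the normalized value. This scale shrinks the changes of genes with low values. Called genes had a median size of change of 0.56, and 537 higher but 184 lower genes reached an absolute value of 1.

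Between 61 and 158 genes were at 0 in a library, and the normalized totals were alike, which says nothing of the sequencing depth. KI replicate 1 stood apart from the other libraries. On the first principal component (50.5% of the variance) it lay at 56.5, against 13.9 to 26.3 in the other KI libraries and -31.4 to -23.5 in WT, and its mean correlation with its own group was 0.956, against 0.974 to 0.975 in the other KI libraries and 0.981 to 0.987 in WT. It was the highest of the 8 libraries for 646 of the 1407 genes called higher. Without it, 3205 genes (17.4%) were called, 1653 higher (8.98%) and 1552 lower (8.43%), and 2568 of the 2870 genes remained. The lists of astrocyte, microglial, complement, oligodendrocyte and vascular genes are therefore given with and without KI replicate 1. Over all genes tested, the median log2 fold change was 0.01. The labels give no extraction or sequencing batch for this library, and the part of any such batch was not tested.

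*Cyfip2* itself (chr11:46193850-46312859 in GRCm38, minus strand) was not called. Its normalized values were 20608, 34100.0, 34409 and 25380.0 in KI replicates 1 to 4 and 31256, 31064, 31149 and 35756 in WT replicates 1 to 4. The KI libraries were widely spread around the WT range, with replicates 1 and 4 below it, and the log2 fold change was -0.20 (SE 0.16, adjusted p = 0.41). The values count both alleles together. Among 16 genes of the WAVE regulatory complex, Rac GTPases and the CYFIP partner FMRP family, 0 rose and 2 fell, or 12.5% called against 15.6% of all genes. The genes that fell were *Rac3*, a neuronal Rac GTPase (log2 fold change -0.56, adjusted p = 0.0284), and *Fxr2*, an FMRP paralog (log2 fold change -0.31, adjusted p = 0.044). Neither passed the threshold without KI replicate 4 or without WT replicate 1, 2 or 4, *Rac3* missed it without KI replicate 3, and *Fxr2* missed it without KI replicate 1 (adjusted p = 0.0631), KI replicate 2 or WT replicate 3 and with the replicate number as a block.

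The gene with the largest fold change was *Slc6a5* (chr7:49910146-49963856), which encodes GlyT2, the glycine transporter of inhibitory nerve terminals in the brainstem and spinal cord. It was at 3101, 879, 908 and 1474 in the KI libraries and at 0.981, 4.24, 0 and 3.15 in the WT libraries. All 4 KI libraries were far above all 4 WT libraries, where the gene was close to undetected. The log2 fold change was 9.08 (SE 0.56, adjusted p = 0.000114), and 8.69 without KI replicate 1. *Glra1*, the adult alpha subunit of the glycine receptor, was at 235, 168, 194 and 126 in KI and 1.05, 0.906, 3.71 and 1.12 in WT libraries. It too rose in all 4 KI libraries from a level near 0 (log2 fold change 6.15, SE 0.35, adjusted p = 0.000114). The glycine genes as a group did not move one way. Of 15 tested, 2 rose and 2 fell, the latter being *Gldc* (-0.47) and *Amt* (-0.52) of the glycine cleavage system, which degrades glycine. Of 18 hindbrain and brainstem markers, 4 were tested and the Hox genes were not analysed here, and limma called none (2 at an unadjusted p under 0.05). Their summed level was 155 to 299.8 in KI and 138 to 169.6 in WT libraries, highest in KI replicate 1. The part of hindbrain tissue in the *Slc6a5* values was not tested.

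The other leading protein-coding genes that rose came from varied families. They included *Tgm1*, a transglutaminase of cornified epithelia (5.95), the homeobox gene *Msx3* (5.25), the proton channel *Otop1* (5.22), the dopamine receptor *Drd4* (5.09), the keratin *Krt75* (4.83), the protease inhibitor *Timp1* (4.65), the retrotransposon-derived imprinted gene *Rtl1* (4.43), the serpin *Serpina3i* (4.40) and the thrombin receptor *F2rl2* (4.21). *Tgm1* was at 1702, 101, 84.0 and 123 in KI and 1.78, 2.32, 1.83 and 3.85 in WT libraries, and *Timp1* at 877, 63.8, 62.3 and 62.5 and 2.1, 5.12, 6.46 and 3.12. For both genes KI replicate 1 was more than 10 times above the other KI libraries, which themselves lay clear of WT. Without KI replicate 1, their log2 fold changes were 4.93 and 3.70. *Serpina3i* belongs to a cluster of near-identical paralogs, so that its reads may be shared with them.

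Among the genes that fell, *Trpa1*, a cation channel that senses irritants, had the largest fold change. It was at 3.36, 1.07, 0 and 0.796 in KI and 31.2, 24.9, 18.1 and 38.1 in WT libraries (log2 fold change -3.81, adjusted p = 0.00169). *Ankrd63*, an ankyrin repeat gene of forebrain neurons, was at 35.7, 141, 95.2 and 169 in KI and 869, 869, 747 and 715 in WT libraries (log2 fold change -3.05, adjusted p = 0.00203). Neither gene overlapped between the groups, and both were low in each of the 4 KI libraries. The others were the claudin *Cldn22* (-3.65), which lies within *Wwc2* on the opposite strand so that reads of the pair may be shared, *Lbhd2* (-3.25), *Rtl3* (-3.02), the Polycomb-associated gene *Epop* (-2.55), *C130060K24Rik* (-2.48), the vesicle fusion protein *Otof* (-2.27), the transcription factor *Onecut1* (-2.17), *Glp1r*, the receptor for glucagon-like peptide (-2.17), the fucosyltransferase *Sec1* (-1.96) and the actin-severing protein *Scin* (-1.96). The genes with the smallest p at a mean of at least 20 were, among those that rose, *Slc6a5*, *Glra1*, the matricellular protein *Ccn4* (3.03), the fibrillar collagen *Col27a1* (2.25) and the secreted protein *Scube1* (2.11). Among those that fell they were *B3gat1*, which makes the HNK-1 carbohydrate (-0.73), the muscarinic receptor *Chrm3* (-0.96), the matrix protein *Tnxb* (-1.31), the sialyltransferase *St6galnac5* (-0.63) and the GTPase *Rab8b* (-0.74).

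**Figure D1:**
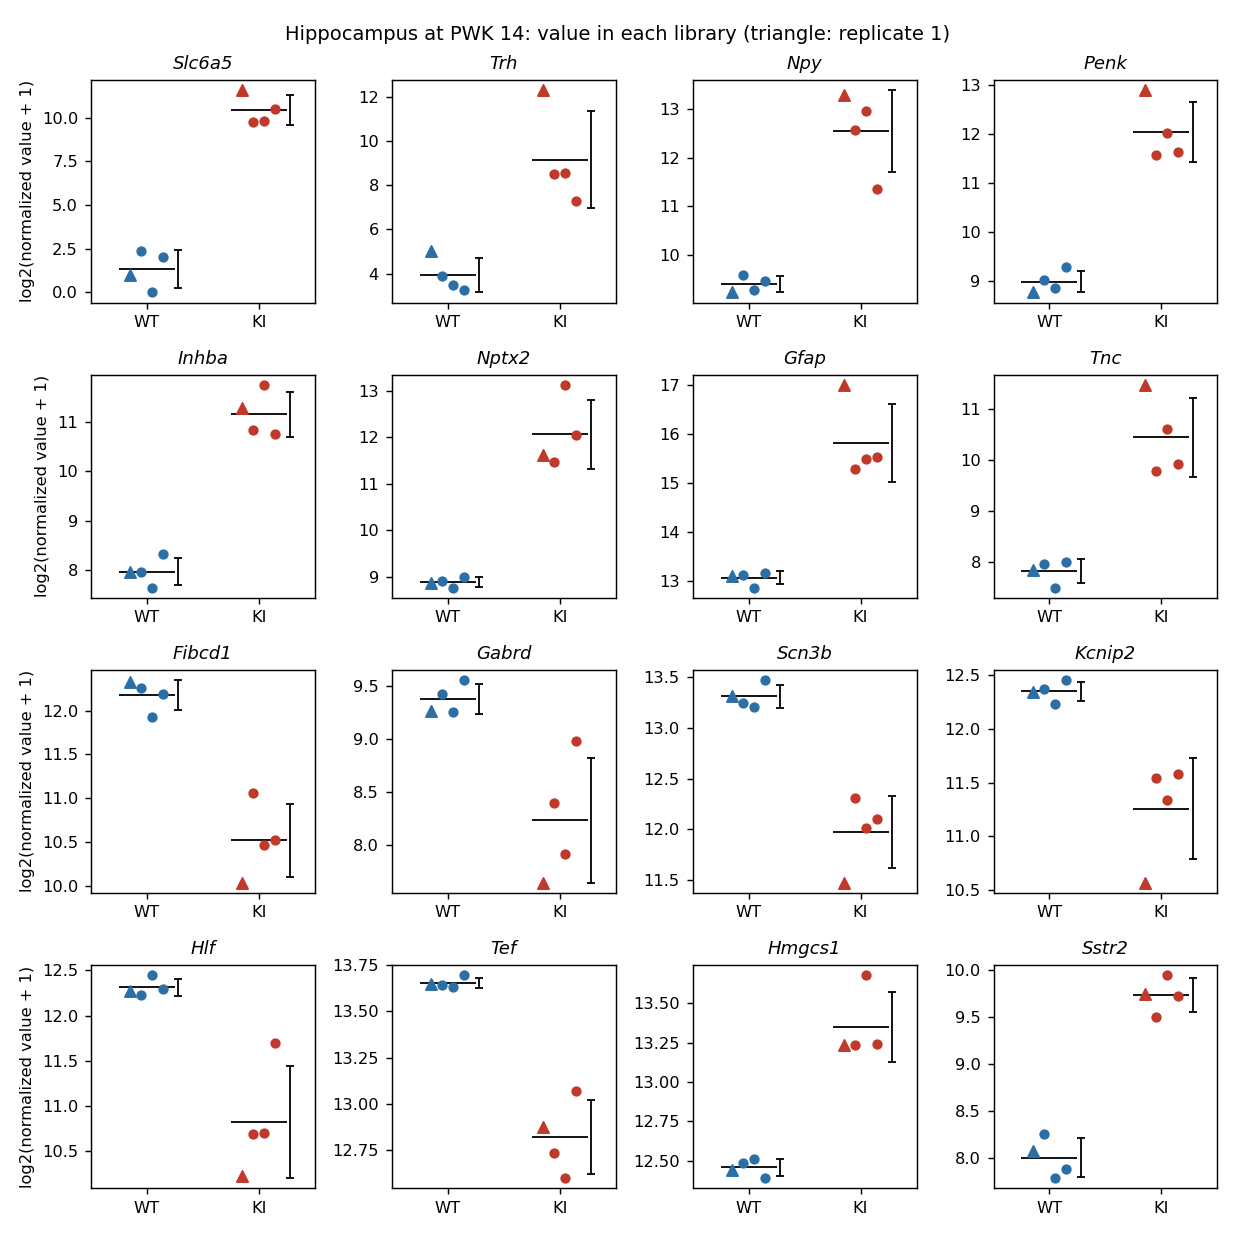
Log2(normalized value + 1) of 16 genes in each of the 4 WT (blue) and 4 KI (red) hippocampal libraries at PWK 14; triangles are replicate 1, lines the mean and bars the SD. In every panel the 4 KI libraries lie on 1 side of the 4 WT libraries. KI replicate 1 is the most extreme KI library in all panels but those of *Inhba*, *Nptx2*, *Tef*, *Hmgcs1* and *Sstr2*.

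Most neuropeptide genes that changed rose. Of 25 seizure-responsive neuropeptide genes tested, 9 rose (7.64% of all genes did) and 3 fell (7.95%), with a median log2 fold change of 0.59, and without KI replicate 1 the counts were 11 and 3. *Npy*, an inhibitory peptide of interneurons that mossy fibres make after seizures, was at 9967, 6059, 7972 and 2614 in KI and 608, 778, 626 and 707 in WT libraries. The lowest KI library was above 3 times the highest WT library, and the log2 fold change was 3.14 (SE 0.34, adjusted p = 0.0011). *Penk*, the enkephalin precursor, was at 7655, 3053, 4168 and 3160.3 in KI and 438, 514, 462 and 622 in WT libraries (log2 fold change 3.05, SE 0.26, adjusted p = 0.000405). *Trh*, the thyrotropin-releasing hormone precursor, was at 5060.2, 357, 373 and 154 in KI and 31.4, 14.0, 10.4 and 8.67 in WT libraries. KI replicate 1 held over 10 times the *Trh* of any other library, yet the other 3 KI libraries also lay above all WT libraries (log2 fold change 5.23, and 4.18 without KI replicate 1, adjusted p = 0.00651 and 0.000493). *Gal*, encoding galanin, showed the same order, at 1274, 109, 148 and 74.4 in KI and 17.7, 13.9, 10.2 and 5.28 in WT libraries (log2 fold change 4.08, adjusted p = 0.00969).

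The granins *Scg2* (1.31) and *Chga* (1.30) and the secreted precursor *Vgf* (1.33), which load or fill dense-core vesicles, rose by similar amounts, as did *Tac2*, the neurokinin B precursor (1.51), and *Grp*, gastrin-releasing peptide (1.11). The peptides that fell were *Cort*, the cortistatin gene of interneurons (-1.75), neurotensin (*Nts*, -0.70) and cholecystokinin (*Cck*, -0.35). Of 26 neuropeptide receptor genes, 5 rose and 3 fell. Those that rose were *Sstr2* (1.73) and *Sstr5* (1.74), receptors for somatostatin and cortistatin, *Trhr2*, a receptor for TRH (2.75), the substance P receptor *Tacr1* (1.44) and the delta opioid receptor *Oprd1* (0.68). *Sstr2* was at 859, 726, 986 and 848 in KI and 269, 304, 219.7 and 235 in WT libraries, a separation that did not rest on KI replicate 1. Those that fell were the CRH receptor *Crhr1* (-0.88), the PACAP receptor *Adcyap1r1* (-0.45) and *Npy1r*, which binds NPY (-0.43).

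Promoters are shown for genes of 4 groups that moved together, since their known regulatory motifs can be looked up in the sequence. The windows are the 250 bases before each RefSeq start site (GRCm38.p6), read 5′ to 3′ on the gene's strand, and motifs were searched on both strands. The palindromic cAMP response element TGACGTCA was found in 384 of 16496 promoters of the genes tested (2.33%), in 3.36% of those of genes called higher and in 1.77% of those of genes called lower. In the neuropeptide list it was found in 5 of 21 promoters, of which *Scg2* was the only one of a called gene. A match describes the letters and not a bound site. The *Scg2* promoter (chr1:79440027-79440276, minus strand) carries the element, in capitals, 68 bases before the start site.
Scg2: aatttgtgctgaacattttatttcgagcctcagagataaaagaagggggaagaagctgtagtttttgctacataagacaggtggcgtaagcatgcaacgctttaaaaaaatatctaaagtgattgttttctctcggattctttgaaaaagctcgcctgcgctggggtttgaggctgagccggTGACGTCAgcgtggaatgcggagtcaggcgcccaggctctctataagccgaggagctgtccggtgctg

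Genes induced by neuronal activity also rose. Of 32 activity-induced effectors tested, 15 rose and 0 fell, with a median log2 fold change of 0.70, and without KI replicate 1, 18 rose and 1 fell. *Nptx2*, a secreted pentraxin that clusters AMPA receptors, was at 3153, 2837, 8970.4 and 4223 in KI and 468, 477, 434 and 512 in WT libraries (log2 fold change 3.18, SE 0.30, adjusted p = 0.000623). *Inhba*, the activin A subunit, was at 2495, 1826, 3466 and 1735 in KI and 246, 245, 198 and 317 in WT libraries (log2 fold change 3.20, SE 0.22, adjusted p = 0.000129). *Bdnf*, the brain-derived neurotrophic factor, was at 2057, 2812, 6049 and 3081 in KI and 931, 886, 885 and 1228 in WT libraries (log2 fold change 1.73, SE 0.28, adjusted p = 0.00428). In these 3 genes the groups did not overlap, and KI replicate 3, not replicate 1, was the highest library. Other members that rose included cyclooxygenase 2 (*Ptgs2*, 1.83), the stress sensor *Gadd45b* (1.54), the metalloprotease *Tll1* (2.22), the phosphatase *Dusp14* (1.23) and the G-protein regulators *Rgs2* (1.45) and *Rgs4* (1.43).

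The transcription factors that respond first to activity changed less uniformly. Of 22 immediate early factors, 6 rose and 1 fell. *Atf3* (2.46), *Klf10* (1.65), *Maff* (1.46), *Fosl2* (0.92) and *Egr3* (0.88) were higher, whereas *Nr4a2*, an orphan nuclear receptor, was lower (-0.98). The median of the list, relative to the WT mean, was 0.96 in KI replicate 1 and 0.09 to 1.10 in the other KI libraries, with the highest in replicate 3. Among 55 growth factor genes, 13 rose and 5 fell. Beside *Inhba* and *Bdnf*, the activin and nodal receptor *Acvr1c* (2.11), *Bmp3*, a BMP that opposes the others (3.17), the activin antagonist follistatin (*Fst*, 1.35), the GDNF receptor *Ret* (1.88), *Hbegf* (1.18) and *Igf1* (0.63) rose. Neurotrophin 3 (*Ntf3*, -1.73), *Fgf10* (-1.17) and the activin B subunit *Inhbb* (-0.87) fell, so that the 2 neurotrophins and the 2 activin subunits named moved in opposite directions. *Ntf3* was at 55.7, 68.4, 33.0 and 84.6 in KI and 174, 185, 201 and 207 in WT libraries. *Cdkn1a*, the p53-responsive cell cycle inhibitor p21, was at 872, 770.1, 997 and 968 in KI and 160.2, 166, 230.4 and 134 in WT libraries (log2 fold change 2.40, adjusted p = 0.000129), and the 4 KI libraries were alike.

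Sodium, potassium and calcium channel genes were among those that changed. The share of members called was 66.7% for sodium channels (8 of 12) and 33.7% for potassium channels (28 of 83), against 15.6% of all genes. It was 32% for calcium channel genes by symbol (8 of 25) and 9.52% for Trp channels (2 of 21). The calcium channel symbols also cover AMPA receptor auxiliary subunits such as *Cacng5*. In a list of 18 voltage-gated calcium channel subunits, 27.8% were called. Sodium channel genes mostly fell, 6 against 2 that rose. *Scn3b*, an auxiliary beta subunit, was at 2838, 5073, 4132 and 4394 in KI and 10198, 9728, 9450.1 and 11369 in WT libraries, with all KI libraries below all WT libraries (log2 fold change -1.34, SE 0.15, adjusted p = 0.00127). The beta subunits *Scn4b* (-0.999) and *Scn2b* (-0.47) and the pore subunits *Scn9a* (-1.07) and *Scn1a*, the main sodium channel of interneurons and a major epilepsy gene (-0.46), also fell. *Scn11a* (2.95) and *Scn7a* (0.82) rose, the former from a level near 0.

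Of 43 voltage-gated potassium channel genes, 5 rose and 11 fell. *Kcnip2*, a subunit of A-type channels in dendrites, was at 1514, 2977, 2586 and 3068 in KI and 5192, 5297, 4816 and 5619.6 in WT libraries (log2 fold change -1.09, adjusted p = 0.00678). Its relative *Kcnip3*, also known as the transcriptional repressor DREAM, moved the other way, at 5159, 5887, 7224 and 4954 in KI and 2232, 2486, 2533 and 2187 in WT libraries (log2 fold change 1.29, adjusted p = 0.000468). The A-type pore subunit *Kcnd2* (-0.38), the M-current subunits *Kcnq3* (-0.38) and *Kcnq5* (-0.59), the modifier *Kcng2* (-0.99) and *Kcnh7* (-0.75) fell, and so did the leak channels *Kcnk9* (-0.78) and *Kcnk2* (-0.59). In the potassium channel family the largest fold changes were those of *Kcnq1* (3.22) and *Kcne1l* (2.68), which both rose. *Kcnq1* was at 81.3, 54.8, 39.9 and 64.6 in KI and 7.11, 2.06, 4.84 and 10.2 in WT libraries. *Cacna1g*, a T-type calcium channel that supports burst firing, was at 6984, 8209, 8825 and 6164 in KI and 3332, 3194, 2691 and 2512 in WT libraries (log2 fold change 1.36, adjusted p = 0.000606), and the auxiliary subunits *Cacna2d2* (0.97) and *Cacna2d4* (2.20) rose as well. Of the 5 genes of HCN pacemaker channels and their partners, *Hcn4* rose (1.46) and *Pex5l*, the TRIP8b trafficking subunit, fell (-0.62).

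Genes of inhibitory signalling changed in both directions. Of 14 GABA-A receptor subunits, 2 rose and 2 fell, those that rose being *Gabre* (1.30) and *Gabrb1* (0.23). The subunits that fell are known from the extrasynaptic receptors of tonic inhibition. *Gabrd*, the delta subunit of granule cells, was at 199, 335, 240.3 and 505 in KI and 614, 683, 609.6 and 750.4 in WT libraries, and *Gabra5*, the alpha subunit of pyramidal cells, at 2509, 3350.4, 3616 and 3257 and 5584, 5589.6, 5152 and 6267. Neither overlapped, and their log2 fold changes were -1.14 (adjusted p = 0.0157) and -0.84 (adjusted p = 0.00204). In the list of GABA synthesis, transport, GABA-B and chloride genes, 1 of 20 rose and 7 fell, with a median of -0.06. Without KI replicate 1, 2 rose and 6 fell, and the median was 0.02. With every library included, the gene that rose was *Gad2*, which makes GABA (0.49). Those that fell included the GABA transporter *Slc6a11* (-0.63) and *Slc12a5*, the neuronal chloride extruder KCC2 (-0.51). *Slc12a5* was at 9258, 10812, 10846 and 12107 in KI and 14286, 15903, 14693 and 16001 in WT libraries, lower in each KI library. Of 28 interneuron identity genes, 3 rose, *Npy* and *Gad2* among them, and 5 fell, including *Lamp5* (-0.77) and *Kit* (-0.58). Without KI replicate 1 the balance turned, to 7 that rose and 6 that fell.

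Genes of excitatory synapses mostly fell where they changed. In the list of AMPA and kainate receptor subunits, which also holds the delta receptor gene *Grid1*, 0 of 11 rose and 4 fell. *Gria2*, the subunit that keeps AMPA receptors closed to calcium, was at 21179, 23924, 23391 and 24906 in KI and 32170.0, 27853, 30493 and 31734 in WT libraries (log2 fold change -0.39, SE 0.08, adjusted p = 0.0105). The difference was modest, but the groups did not overlap, and *Gria3* (-0.35), *Grik3* (-0.58) and *Grid1* (-0.34) fell too. AMPA and kainate auxiliary subunits split, and 3 of 20 rose, *Shisa8* (1.76), *Olfm2* (1.29) and *Gsg1l* (1.08). Another 6 fell, among them *Cacng5* (-0.67) and *Shisa9* (-0.60). Of 9 genes of NMDA receptors and co-agonist supply, the one called was *Slc7a10*, a transporter of D-serine and glycine, which rose (0.51). Of 7 metabotropic receptors, *Grm5* fell (-0.41). Of 32 postsynaptic scaffold and signalling genes, 0 rose and 5 fell, including the scaffold *Homer2* (-0.89), the synaptic organizer *Lrrtm1* (-0.61) and *Dlg2*, which encodes PSD-93 (-0.21). This was 15.6% called, the same as the share of all genes, and the NMDA and metabotropic lists had 11.1% and 14.3%. The postsynaptic list's median difference from the WT mean was -0.35 in KI replicate 1 and -0.18 to -0.05 in the others, with KI replicate 3 within the WT range. Without KI replicate 1, 2 of the list rose and 6 fell.

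The release machinery did not fall as a group. Of 43 synaptic vesicle genes, 8 rose and 5 fell. *Syt1*, the calcium sensor of fast release, was lower (-0.37), and the vesicle glycoprotein *Sv2c* (1.50), the synapsin *Syn3* (0.90) and *Syt12* (0.82) were higher. *Sv2c* was at 8045, 2932, 2838 and 2246 in KI and 1295, 1137, 1253 and 1256 in WT libraries, highest in KI replicate 1, and its log2 fold change was 1.10 without that library. Genes of calcium and second messenger signalling followed. The calcium release channels *Itpr1* (-0.93) and *Ryr3* (-0.62) and the kinases *Camkk2* (-0.95) and *Prkcb* (-0.44) fell. So did the kinase-like gene *Camkv* (-0.57) and the adenylyl cyclase *Adcy1* (-0.54). All 5 called members of the CaM kinase family of 14 fell, a family that by symbol counts inhibitors of CaM kinases too. In contrast, 8 of 20 RGS proteins, which shorten G-protein signals, rose and 2 fell, with *Rgs13* the furthest (2.39). Monoamine and acetylcholine receptors split evenly, with 8 of 39 that rose and 8 that fell. The dopamine receptors *Drd4* and *Drd1* (2.07) rose, and the serotonin receptors *Htr1b* (-1.29), *Htr5b* (-1.16) and *Htr1a* (-0.78) and the muscarinic receptors *Chrm3* and *Chrm1* (-0.44) fell. *Drd1*, which is also a striatal marker, was at 281, 491, 459.9 and 472 in KI and 63.0, 114, 129 and 99.7 in WT libraries. Of 10 striatal markers, 2 rose, *Drd1* and *Rgs9*, and their summed level was 2525 to 5195 in KI and 2000.2 to 3449.7 in WT libraries, so the groups overlapped. The part of striatal tissue was not tested.

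The identity genes of hippocampal principal cells were examined next. All 8 libraries expressed the granule cell list and the pyramidal cell lists, as the label hippocampus implies, with summed levels of 40215 to 55818 (KI) and 48981 to 62819 (WT) for dentate granule cell genes. Of 21 such genes, 1 rose and 7 fell, with a median log2 fold change of -0.43. Without KI replicate 1 the median was -0.21. The tryptophan-degrading enzyme *Tdo2* (-1.87), lactase (*Lct*, -1.17) and *Gabrd* fell most, and *Pdzd2* (0.55) rose. Of 20 genes of CA1 and CA2 pyramidal neurons, 0 rose and 8 fell, with a median of -0.36, and -0.21 without KI replicate 1. The list's median was lower in all 4 KI libraries than in every WT library. *Fibcd1*, a marker of CA1 that binds glycosaminoglycans, was at 1049, 2128, 1410.4 and 1465 in KI and 5126, 4909.5, 3903 and 4660.3 in WT libraries (log2 fold change -1.66, SE 0.18, adjusted p = 0.0011). The Nodal antagonist *Lefty1* (-1.31) fell too. In the list for CA3 and hilar mossy cells, 3 of 20 rose and 5 fell, and the balance depended on WT replicate 3. The serine protease *Prss23* rose most there, beside *Glipr1* (1.56) and *Cda* (1.24), at 2704, 4099, 3977 and 1768 in KI and 519, 459, 451 and 438 in WT libraries. In tissue RNA, fewer cells of a type and less RNA of a gene per cell cannot be told apart. Of 24 genes of immature neurons, 6 rose, among them *Sox11* (1.11), *Igfbpl1* (1.37) and the progenitor filament *Nes* (1.53), and 2 fell, *Bhlhe22* (-0.62) and *Stmn1* (-0.47). Of 43 genes of neurofilaments, tubulins and actin dynamics, 9 rose, with the tubulin *Tubb6* (3.43), the membrane linker moesin *Msn* (1.28) and the heavy neurofilament *Nefh* (0.80) among them, and 2 fell. Of 65 guidance genes of the semaphorin, plexin, ephrin, slit and netrin families, 7 rose and 7 fell. Among those that fell, the netrin receptor *Dcc* (-1.01) moved furthest.

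Reactive astrocyte genes had the largest median of all lists examined with every library included. Without KI replicate 1 their median was 1.28, and that of choroid plexus markers, none of them called, was 2.36. Of 23 reactive astrocyte genes, 13 rose and 0 fell, with a median log2 fold change of 1.75, and without KI replicate 1, 17 rose and 0 fell. The list's median difference from the WT mean was 3.53 in KI replicate 1 and 1.14 to 1.38 in KI replicates 2 to 4. *Gfap*, the astrocytic intermediate filament, was at 131430.0, 40059, 45880.0 and 47169 in KI and 8842, 8972, 7502 and 9231 in WT libraries (log2 fold change 2.75, SE 0.32, adjusted p = 0.00129). KI replicate 1 was near 3 times the other KI libraries, which were themselves over 4 times any WT library, and the log2 fold change without it was 2.36 (adjusted p = 3.63e-06). The hyaluronan receptor *Cd44* (3.20), the acute-phase serpin *Serpina3n* (2.86), the pentraxin *Ptx3* (3.02), the oncostatin receptor *Osmr* (2.17) and *Socs3*, a feedback inhibitor of cytokine receptors (2.76), rose as well. Homeostatic astrocyte genes changed less, with 4 of 19 that rose and 2 that fell (6 and 2 without KI replicate 1), and none that rose without WT replicate 1 or 2. The water channel *Aqp4* (1.33) and the potassium channel *Kcnj10* (0.90) rose, and glutamine synthetase (*Glul*, -0.48) and *Slc6a11* fell. *Aqp4* was at 26864, 7666, 7099.5 and 7849 in KI and 4199, 4101, 3806 and 4358 in WT libraries, and its log2 fold change was 0.87 without KI replicate 1.

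Microglial, interferon and antigen presentation genes differed from the astrocyte genes in how they were spread over the KI libraries. Limma called none of 16 homeostatic microglia genes (2 at an unadjusted p under 0.05), and 1, higher, without KI replicate 1. Their summed level was 40256, 14357, 13694 and 19995 in KI replicates 1 to 4 and 13679, 14236, 13157 and 15832 in WT replicates 1 to 4. KI replicate 1 was far above the other 7 libraries, and KI replicates 2 and 3 lay within the WT range. For interferon-stimulated genes KI replicate 1 was again the highest KI library, with a median difference from the WT mean of 2.30 in KI replicate 1 and 0.00 to 0.39 in the others, and 1 of 25 was called with or without that library, which in the 8 libraries was *Bst2* (1.27). For MHC antigen presentation genes these values were 1.38 and 0.09 to 0.37, and 1 of 20 was called, again with or without KI replicate 1, which in the 8 libraries was *H2-Ab1* (1.97). *H2-Ab1*, an MHC class II chain, was at 204, 138, 120.1 and 64.1 in KI and 30.5, 33.4, 31.3 and 26.2 in WT libraries and was thus higher in all 4 KI libraries. Of 23 activated and phagocytic microglia genes, 5 rose and 1 fell, and 8 and 1 did so without KI replicate 1. The glycoprotein *Gpnmb* (2.28), the lysosomal protein *Cd68* (1.35) and lysozyme (*Lyz2*, 1.33) rose, and lipoprotein lipase (*Lpl*), also made by neurons, fell (-1.02). Of 20 complement genes, 6 rose and 0 fell (8 and 0 without KI replicate 1), led by *C4b*, at 12472, 4913, 4899.6 and 6280.5 in KI and 1904, 1642, 1629 and 1529 in WT libraries (log2 fold change 1.98, adjusted p = 0.00203). Of 22 cytokine and injury signals, 8 rose, among them the TWEAK receptor *Tnfrsf12a* (2.08), *Tgfb1* (1.36) and the leukemia inhibitory factor *Lif* (1.44), and 2 fell, *Cxcl12* (-0.81) and *Il34* (-0.64) (7 and 2 without KI replicate 1). The part of KI replicate 1's glial values in other lists was not tested, beyond the counts given without it.

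Few oligodendrocyte genes were called, and some vascular genes rose. Of 23 myelin genes, 1 rose, *Cldn11* (0.47), and 0 fell (2 and 0 without KI replicate 1), and limma called none of 20 precursor genes (1 at an unadjusted p under 0.05), or 1, lower, without KI replicate 1. Of 27 endothelial and pericyte genes, the VEGF receptor *Kdr* (0.55), the lipid transporter *Mfsd2a* (0.96) and the leukocyte adhesion molecules *Icam1* (1.28) and *Vcam1* (0.92) rose, and vitronectin, *Vtn* (-0.47), fell, so that 18.5% of the list was called, against 15.6% of all genes. Without KI replicate 1, 6 rose and 1 fell, and none of the list rose past the threshold without WT replicate 1, 2 or 4. Among markers of tissue that can be carried along in dissection, those of the choroid plexus varied widely. Their summed level was 2619.6, 19988, 105154 and 92041 in KI replicates 1 to 4 and 2630.2, 19117, 111379 and 2276 in WT replicates 1 to 4, high in KI replicates 3 and 4 and in WT replicate 3, and none of 12 was called (1 at an unadjusted p under 0.05). The counts called among markers were 3 higher and 2 lower of 12 for meninges and fibroblasts, 0 and 2 of 9 for thalamus, 0 and 5 of 11 for neocortex, and none of 12 for ependyma and of 10 for blood (0 and 1 at an unadjusted p under 0.05). These markers overlap with genes of hippocampal cells, such as *Lamp5* in the neocortical list, and the part of other tissue in the hippocampal values was not tested.

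**Figure D2:**
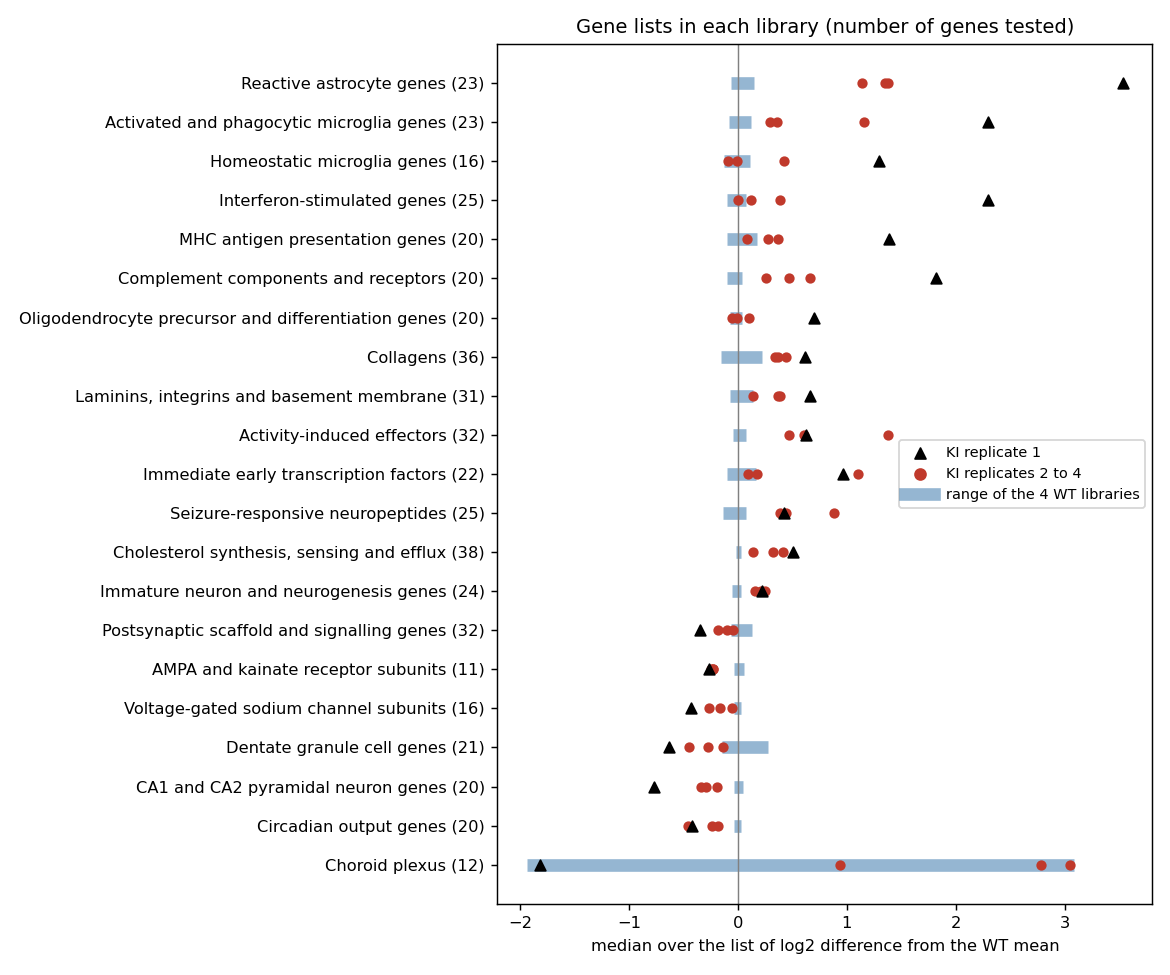
For 21 gene lists, the median over the list of each library's log2 difference from the WT mean at PWK 14, with KI replicate 1 (black triangles), KI replicates 2 to 4 (red points) and the range of the 4 WT libraries (blue bars); the number of genes tested follows each name. KI replicate 1 lies far right of the other libraries for glial and immune lists, while the CA1 and CA2, AMPA receptor and circadian lists lie left of the WT range in all 4 KI libraries.

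Genes of the extracellular matrix, the meshwork that surrounds cells and vessels, mostly rose where they changed. Of 36 collagens, 9 rose and 3 fell, with a median of 0.51. The basement membrane chains *Col4a1* (1.02) and *Col4a2* (0.67) rose, and the membrane collagen of neurons *Col25a1* (-0.50) and *Col19a1* (-0.87) fell. *Col27a1* was at 1159.8, 1711, 1194 and 1419 in KI and 279, 269.6, 342 and 251 in WT libraries, and KI replicate 1 was the lowest of the 4 KI libraries. Of 33 lecticans, perineuronal net and matrix glycoprotein genes, 8 rose and 3 fell. *Tnc*, tenascin C of injured tissue, was at 2838, 882, 1559 and 969 in KI and 229, 247, 179.8 and 256 in WT libraries (log2 fold change 2.62, adjusted p = 0.00162). The lecticans split, with *Acan* (1.97) and *Ncan* (0.80) that rose and *Bcan* that fell (-0.52), and the collagen cross-linker *Lox* rose (2.37). Of 31 laminin, integrin and basement membrane genes, 12 rose and 2 fell, and among integrin alpha chains *Itga2* (3.61) and *Itga5* (1.85) rose while *Itga4* (-1.46) fell.

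Of 30 matrix proteases and inhibitors, 9 rose and 3 fell, and the plasminogen system contributed several. The urokinase receptor *Plaur* was at 53.8, 16.4, 28.0 and 34.6 in KI and 5.42, 4.22, 2.92 and 3.08 in WT libraries (log2 fold change 2.71, adjusted p = 0.00275), and urokinase itself (*Plau*) rose by 1.10. All 4 KI libraries were above all 4 WT libraries for *Plaur*. In the serpin family 8 of 19 members rose and 1 fell. The pattern TGANTCA, with any base at N, covers the AP-1 motif of FOS and JUN proteins and is wider than it. It was found in 7.24% of promoters of genes called higher, in 3.19% of those of genes called lower and in 4.62% of all. These shares are descriptions of the windows. The window before *Plaur* (chr7:24462233-24462482, plus strand) is shown with its AP-1 match in capitals, 69 bases before the start site.
Plaur: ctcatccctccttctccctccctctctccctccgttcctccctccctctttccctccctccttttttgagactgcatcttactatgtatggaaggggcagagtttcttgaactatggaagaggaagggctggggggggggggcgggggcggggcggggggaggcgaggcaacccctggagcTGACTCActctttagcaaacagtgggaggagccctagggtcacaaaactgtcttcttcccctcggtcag

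Genes of cholesterol synthesis rose, most by under 1 on the log2 scale. Of 38 genes of cholesterol synthesis, sensing and efflux, 16 rose and 2 fell, with a median of 0.34, and without KI replicate 1, 16 rose and 3 fell. *Hmgcs1*, the synthase at the head of the pathway, was at 9652, 9648, 13105 and 9678 in KI and 5555, 5744, 5829.7 and 5372 in WT libraries (log2 fold change 0.89, SE 0.10, adjusted p = 0.0011). KI replicates 1, 2 and 4 were nearly equal and KI replicate 3 was higher. The epoxidase *Sqle* (0.61), the demethylase *Cyp51* (0.65), the squalene synthase *Fdft1* (0.63) and the sterol sensor *Insig1* (0.56) rose, and the efflux pump *Abcg4* fell (-0.45). The sterol regulatory element TCACNCCAC was found in 0.982% of all promoters. The shares were 0.971% for genes called higher and 1.06% for genes called lower. In the list it was found in 1 of 37 promoters, that of *Hmgcs1* (chr13:119690101-119690350, plus strand), 137 bases before the start site.
Hmgcs1: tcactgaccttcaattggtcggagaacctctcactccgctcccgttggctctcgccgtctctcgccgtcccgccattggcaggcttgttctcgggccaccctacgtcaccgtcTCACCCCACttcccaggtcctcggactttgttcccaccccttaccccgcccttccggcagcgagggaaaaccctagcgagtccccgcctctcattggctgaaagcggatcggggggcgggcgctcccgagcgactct

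In energy metabolism, 7 of 25 glycolysis and lactate transport genes rose and 1 fell. Hexokinase 2 (*Hk2*) was at 806, 407, 531 and 435 in KI and 173, 168, 174 and 146 in WT libraries (log2 fold change 1.66, adjusted p = 0.00144). Of the lactate dehydrogenase chains, *Ldha* rose (0.66) and *Ldhb* fell (-0.29). *Ldhb* missed the threshold without KI replicate 1, 2 or 3 and without WT replicate 1, 2, 3 or 4. It also missed the threshold under total-sum or quantile scaling, with a robust prior and with the replicate number as a block. Of 42 fatty acid and lipid droplet genes, 6 rose, with the desaturase *Scd4* the furthest (2.45), and 1 fell, and of 45 nuclear subunits of oxidative phosphorylation 3 rose and 0 fell, where 15.6% of all genes were called. With a correction for GC content and length, 0 of the latter rose and 2 fell.

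Circadian output genes fell. These are the genes through which the cell clock drives daily rhythms. All brains were collected within the same hours, so that amplitude and timing cannot be told apart. Of 20 genes, 1 rose and 7 fell, with a median of -0.28. *Tef*, a PAR-bZIP transcription factor, was at 7506, 6809.6, 6209 and 8597 in KI and 12820.0, 12773, 12681 and 13269 in WT libraries (log2 fold change -0.83, SE 0.09, adjusted p = 0.0011). The WT libraries were within a narrow range and all 4 KI libraries lay below it. Its relative *Hlf* was at 1195, 1649, 1667 and 3311 in KI and 4947, 4809, 5579.9 and 5029 in WT libraries (log2 fold change -1.48, adjusted p = 0.00534), and the third member *Dbp* (-1.02), the nuclear receptor *Nr1d1* (-0.74) and *Per3* (-1.08) fell too. *Bhlhe41*, a repressor of the clock, rose (0.81). The E-box CACGTG, the site of the CLOCK and BMAL1 pair, was found in 6 of 24 promoters of this list and in 7.69% of all. The D-box TTATGNAA, the site of PAR-bZIP factors, was found in 2 of 24 and in 1.98%. For genes called higher and lower, the shares were 8.66% and 7.45% for the E-box and 1.72% and 2.2% for the D-box. The promoters of *Tef* (chr15:81802423-81802672, plus strand), with an E-box 127 bases before the start site, and of *Per3* (chr4:151044666-151044915, minus strand), with D-boxes 205 and 158 bases before it, are shown with these motifs in capitals.
Tef: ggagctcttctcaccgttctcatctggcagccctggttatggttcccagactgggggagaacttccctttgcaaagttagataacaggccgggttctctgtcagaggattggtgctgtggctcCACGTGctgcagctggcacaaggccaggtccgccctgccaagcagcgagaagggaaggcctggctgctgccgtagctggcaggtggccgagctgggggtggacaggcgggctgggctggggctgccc
Per3: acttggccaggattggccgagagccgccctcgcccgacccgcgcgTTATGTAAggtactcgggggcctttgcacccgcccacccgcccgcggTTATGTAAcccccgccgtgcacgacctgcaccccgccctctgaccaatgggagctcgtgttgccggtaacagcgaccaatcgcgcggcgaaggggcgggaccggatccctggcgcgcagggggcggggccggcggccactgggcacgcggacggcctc

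The splicing regulators that were called fell by small amounts. Of 43 SR, hnRNP and neuronal splicing genes, 0 rose and 9 fell, or 20.9% called against 15.6% of all genes. Among those that fell were the kinase *Clk1* (-0.49), which phosphorylates SR proteins, *Hnrnph1* (-0.40) and *Srsf7* (-0.37). Without KI replicate 1, 0 rose and 7 fell. Families were defined by symbol, and those with at least 8 members tested and at least 30% called included the channel families above. Next came RGS proteins (50%), synaptotagmins (47.6%), serpins (47.4%), the TGF-beta, BMP and activin family (43.2%) and Adamts proteases (37.5%). By symbol, the TGF-beta, BMP and activin family also counts genes of other kinds, such as *Tgfb1i1*, a focal adhesion protein. Laminins (36.4%), CaM kinases and their inhibitors (35.7%), Adam proteases (35.3%) and glycosyl- and sulfotransferases (35.1%) followed. The others were monoamine and acetylcholine receptors (33.3%), integrins (33.3%), neurexins, neuroligins and contactins (31.6%) and annexins (30%). The families with under 5% called included zinc finger proteins (18 of 372), mitochondrial ribosomal proteins (3 of 78), complex I subunits (1 of 46), dynein and cilia genes (0 of 44) and interferon-induced Ifi genes (0 of 21). The share called depends on the expression level and spread of a family's members as well as on their change.

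**Figure D3:**
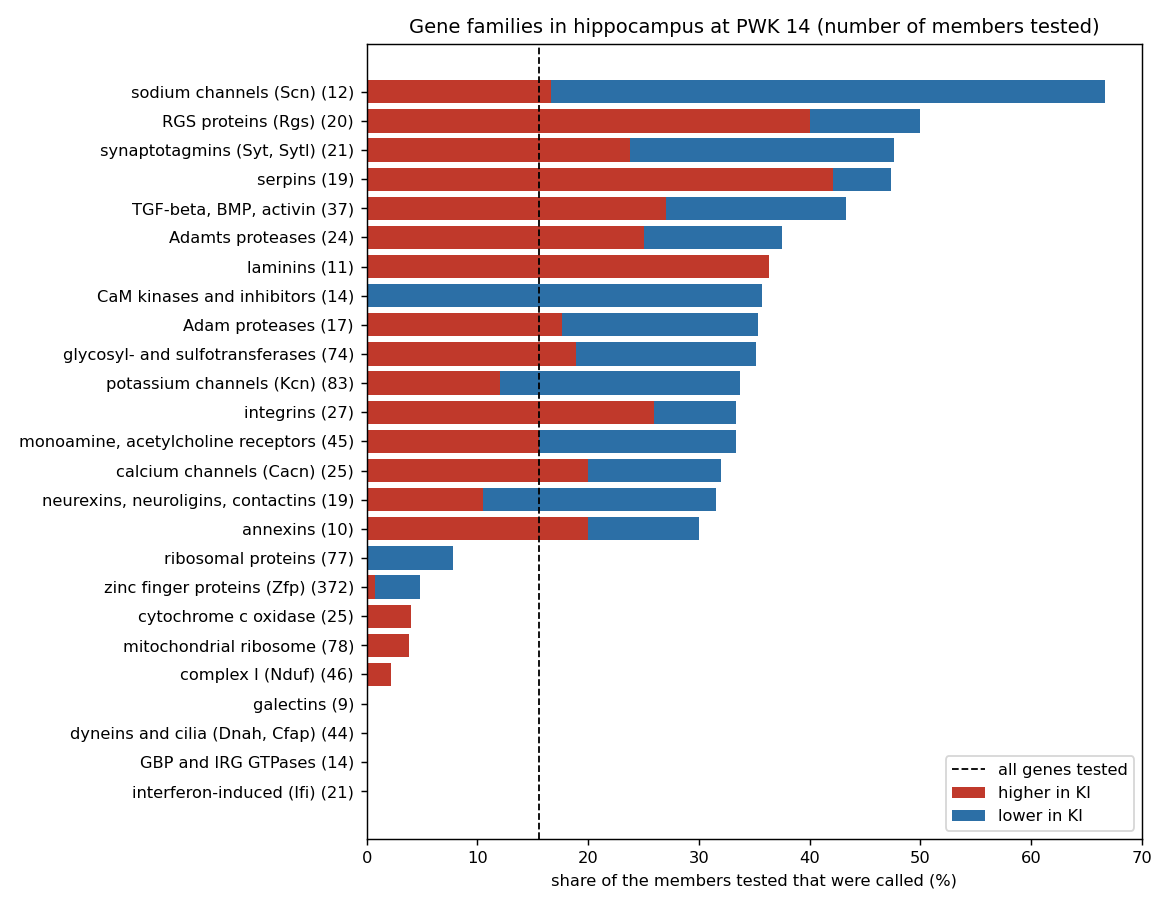
Share of the tested members of each gene family that was called higher (red) or lower (blue) in KI hippocampus at PWK 14, with the number tested after each name and the share of all genes called (15.6%) as a dashed line. Sodium channels reach 66.7%, mostly lower, and cytochrome oxidase, complex I, interferon-induced and cilia families stay under 5%.

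The age course was read from the same fit within each age, in different mice. In hippocampus, 2 genes were called at PWK 1 (0.0109%), 4 at PWK 7 (0.0218%) and 2911 at PWK 28 (15.8%). Of the 6 genes of the early ages, *Tgfb1i1*, a focal adhesion protein, rose at PWK 1 (0.49) and again at PWK 14 (1.79, adjusted p = 0.00186). The others, *Lenep*, *Gm14440*, *Nme2*, *Zxda* and *Gm20691*, were not called at PWK 14, and 4 of the 6 were listed at 0 in all libraries of 1 group at their age. At PWK 7 the log2 fold changes of *Slc6a5*, *Npy*, *Inhba*, *Gfap*, *Scn3b*, *Fibcd1* and *Tef* were 0.03, -0.46, -0.08, 0.03, -0.17, -0.20 and 0.08. None of these 7 was called at that age. At PWK 28 they were 7.64, 2.28, 0.43, 2.00, -0.83, -1.004 and -0.34, smaller in size than at PWK 14 in each case. These genes were named for their PWK 14 values, so that smaller values at another age can come from the choice alone. The difference between PWK 28 and PWK 14 was tested directly in the 16 libraries of both ages, and limma called none of 18411 genes, with 2274 at an unadjusted p under 0.05. Without KI replicate 4 of PWK 14 the count was 156, without KI replicate 1 of PWK 28 it was 33, and without any other library at most 9. Among genes called at PWK 14, those with the smallest p in this test were *Sstr2* (difference -1.40), *Cdyl2* (-1.22), *Sox21* (1.26), *Igsf9b* (-0.99) and *Cdkn1a* (-1.58), none of which passed the adjustment.

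The frontal cortex of PWK 14 mice served to find what was particular to the hippocampus. The difference between the KI effects in the 2 regions was tested in the 16 libraries, and limma called 525 of 18424 genes (2.85%), with the effect more positive in hippocampus for 303 and more negative for 222. Under total-sum scaling 559 were called, 264 and 295, so the balance of this split depends on the scaling, and leaving out 1 library gave from 242 to 800 genes. The most separate were *Sstr2* (difference 2.02, SE 0.17, adjusted p = 2.21e-05), at 1.73 in hippocampus and -0.29 in cortex, *Gm11549* (1.93 and 0.01), *Cldn22* (-3.65 and 2.00), *Lrrc55*, an auxiliary subunit of BK channels (1.04 and -0.62), and the chromodomain gene *Cdyl2* (1.29 and -0.34). *Cldn22* thus fell in hippocampus and rose in cortex (adjusted p = 0.0266). *Slc6a5* (difference 6.73, adjusted p = 0.00129), *Npy* (2.47, adjusted p = 0.00521), *Penk* (3.12, adjusted p = 0.0118), *Inhba* (2.16, adjusted p = 0.00654) and *Hmgcs1* (0.76, adjusted p = 0.0259) also responded more in hippocampus, and *Tef* fell more (-0.85, adjusted p = 0.00112). For *Gfap* (2.75 and 1.56), *Ankrd63* (-3.05 and -2.40) and *Scn3b* (-1.34 and -0.59) the difference between regions did not pass the threshold, with adjusted p = 0.187, 0.725 and 0.053.

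**Figure D4:**
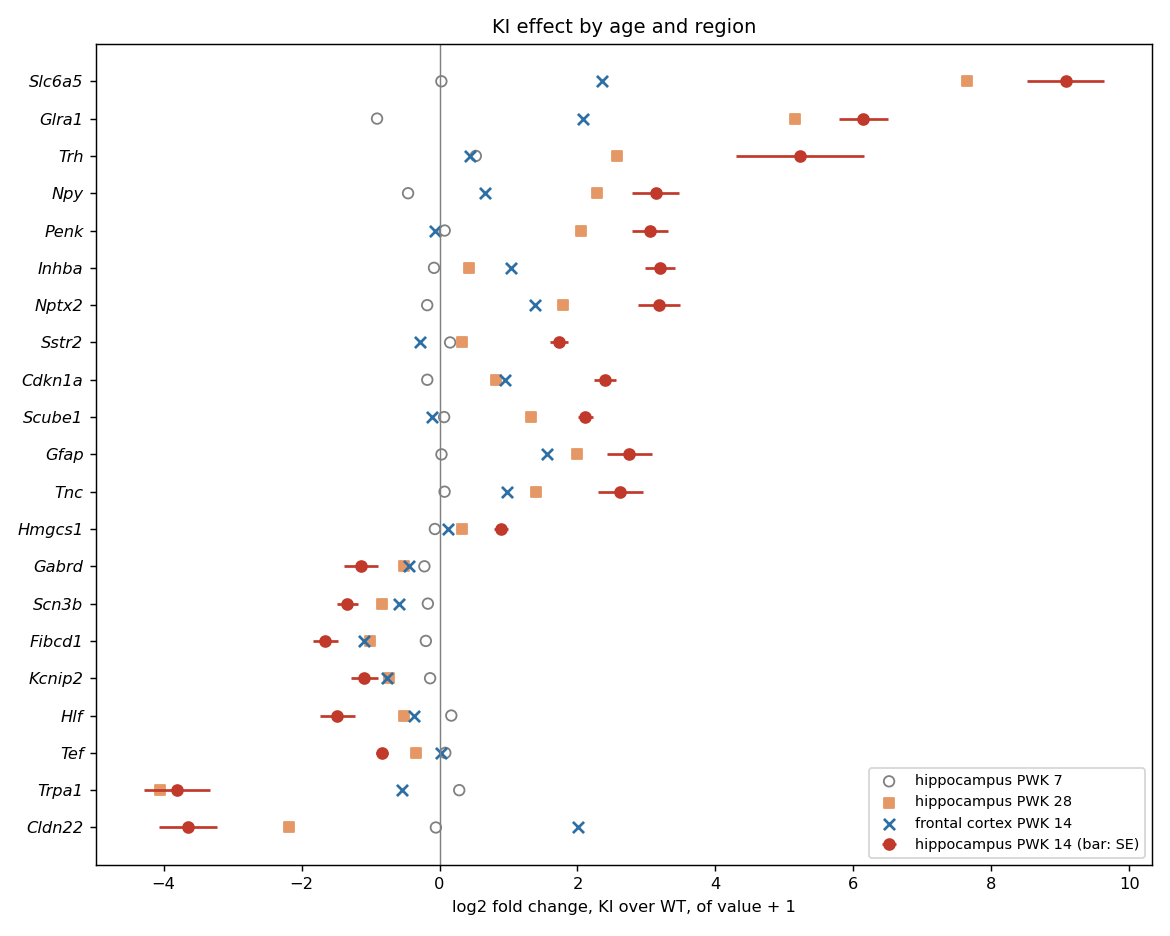
Log2 fold change (KI over WT, of value + 1) of 21 genes in hippocampus at PWK 7 (open circles), PWK 14 (red, with SE bars) and PWK 28 (orange squares) and in frontal cortex at PWK 14 (blue crosses). At PWK 7 most genes lie near 0, and the PWK 14 hippocampal values are the furthest from 0 for all genes shown but *Trpa1*. The genes were picked from those called in hippocampus at PWK 14, a choice that favours large values there.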

How the data were processed

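RNA was sequenced from frontal cortex and hippocampus of KI and WT mice at 4 ages, with 4 libraries per group, and the 8 hippocampal libraries of PWK 14 were compared here. Per the labels, the authors mapped reads to GRCm38 with Salmon (0.11.2) and normalized with DESeq2 (1.19.11) in R (3.6.0). The deposited values are gene-level signal, namely estimated counts divided by size and transcript length factors, and not whole reads, so that no count model was used and the sequencing depth is unknown. The deposited table held 18432 genes, of which 18420 matched the GENCODE vM21 annotation of GRCm38.

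Values were transformed to log2(value + 1), genes with a mean below 1 were left out, and KI was tested against WT with limma (3.58.1, trend, in R 4.3.3), adjusted over all genes by Benjamini-Hochberg and called at 0.05. Differences between regions and ages were tested as interaction terms in 16 libraries. Each group had 4 libraries, 1 per mouse, and the labels give no sex or litter. Promoters came from RefSeq (GRCm38.p6), without chromosome 18. Figures used Python (3.11.15), pandas (2.3.3), numpy (2.4.6) and matplotlib (3.10.9). The comparison, the gene lists and the named genes were chosen with earlier results of these data known. Genes named are the leading fold changes and smallest p-values in each direction, the leading genes of the region and age tests, and called members of the lists. Alternatives were another pseudocount, other filters and scalings, a GC content and length correction, all 64 libraries in one fit, a robust prior, sample weights, a replicate block and leaving out each library. Some list members are counted but are not reported here by name.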

Additional observations from a re-analysis of the deposited data

Results flagged for a closer look

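For 35 of 468 groups of 4 libraries examined, 2 for each of 234 genes named with values, the highest or lowest library stood further from the rest than Dixon's 95% limit for 4 values allows, 22 in KI and 13 in WT groups. Chance gives about 1 in 20. Of these, 14 concerned KI replicate 1. KI replicate 1 lay above the others of its group for *Aqp4* (26864, against 7099.5 to 7849), *Cd44* (2412, against 663 to 687), *Gfap* (131430.0, against 40059 to 47169), *Inhbb* (205, against 112 to 124), *Itga5* (465, against 170.1 to 191), *Kcne1l* (1789.8, against 333 to 424), *Kcnj10* (17603, against 8323 to 8932), *Msn* (5536, against 1624 to 1736), *Serpina3n* (37797, against 5807 to 6975), *Tgm1* (1702, against 84.0 to 123) and *Timp1* (877, against 62.3 to 63.8) and below them for *Camkv* (10322, against 14517 to 15079), *Chrm3* (859.6, against 1021 to 1046) and *Drd1* (281, against 459.9 to 491). KI replicate 3 lay above the others of its group for *Fdft1* (3300.4, against 2656 to 2736), *Fosl2* (3982, against 2229 to 2451), *Hmgcs1* (13105, against 9648 to 9678) and *Rgs2* (3404, against 1807 to 1972). KI replicate 4 lay above the others of its group for *Scn4b* (664, against 288 to 319.8) and *Stmn1* (4799, against 3419 to 3621) and below them for *Col4a2* (4499, against 5979.9 to 6282) and *Insig1* (1935, against 2108 to 2134). WT replicate 1 lay above the others of its group for *Col25a1* (3390.5, against 3008 to 3036) and *Syt12* (884, against 729 to 736). WT replicate 2 lay below the others of its group for *Rgs13* (5.3, against 10.5 to 11.7). WT replicate 3 lay above the others of its group for *Glra1* (3.71, against 0.906 to 1.12), *Igsf9b* (3039, against 2299.9 to 2404) and *Vcam1* (1298, against 863 to 911) and below them for *Camkv* (17321, against 20759 to 21512). WT replicate 4 lay above the others of its group for *Adcy1* (54112, against 40943 to 42927), *Bdnf* (1228, against 885 to 931), *Cyfip2* (35756, against 31064 to 31256) and *Kcnd2* (4581, against 3817 to 3894) and below them for *Cacna2d2* (747, against 1227 to 1344) and *Glp1r* (168, against 423 to 478).

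For 69 of the named genes the KI effect differed between hippocampus and frontal cortex at PWK 14 (limma's interaction term, adjusted p under 0.05), and for 0 between PWK 28 and PWK 14 in hippocampus. Of all 18424 genes tested, 525 (2.85%) differed between regions, 303 more positive and 222 more negative in hippocampus. The named genes were chosen mostly for their hippocampal effect at PWK 14 or for this test, which shapes both their share and their split. Among the 69, the log2 fold change was more positive in hippocampus for 53 genes, by the differences given in parentheses. The largest of these were those of *Slc6a5* (6.73), *Trh* (4.79), *Tgm1* (4.73), *Msx3* (4.26), *Serpina3i* (4.26), *Otop1* (4.12), *Glra1* (4.07), *Krt75* (3.50), *Socs3* (3.44), *Itga2* (3.27), *Penk* (3.12), *Grp* (2.86), *Bmp3* (2.82), *Cacna2d4* (2.65), *Rtl1* (2.64), *Npy* (2.47) and *Ccn4* (2.41). Next in size came *Plaur* (2.38), *Cd44* (2.29), *Hspb1* (2.28), *Scube1* (2.22), *Inhba* (2.16), *Tnfrsf12a* (2.15), *H2-Ab1* (2.14), *Fosl2* (2.11), *Sstr2* (2.02), *Acvr1c* (1.96), *Gm11549* (1.92), *Drd1* (1.88), *Nptx2* (1.79), *Prss23* (1.72), *Lrrc55* (1.66), *Cdyl2* (1.63), *Tac2* (1.62) and *Col27a1* (1.60). The smallest were those of *Rgs4* (1.49), *Cdkn1a* (1.45), *Hk2* (1.30), *Olfm2* (1.24), *Hbegf* (1.22), *Nes* (1.16), *Klf10* (1.06), *Pdzd2* (0.99), *Kdr* (0.98), *Dusp14* (0.96), *Gsg1l* (0.84), *Cacna1g* (0.80), *Hmgcs1* (0.76), *Cyp51* (0.69), *Slc39a14* (0.67), *Ncan* (0.64), *Sqle* (0.52) and *Fdft1* (0.48). It was more negative in hippocampus for 16 genes, namely *Cldn22* (-5.66), *Trpa1* (-3.26), *Sec1* (-2.62), *Epop* (-1.76), *Tnxb* (-1.70), *Per3* (-1.08), *Adcyap1r1* (-0.87), *Tef* (-0.85), *Chrm3* (-0.84), *Ryr3* (-0.81), *Gabra5* (-0.63), *Rab8b* (-0.56), *Lrrtm1* (-0.49), *Pex5l* (-0.49), *Il34* (-0.49) and *Scn2b* (-0.37). The KI effects passed the threshold in both regions with opposite signs for *Adcyap1r1*, *Cldn22*, *Fosl2*, *Grp*, *Lrrc55* and *Pdzd2*.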

How the results depend on the processing

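The 233 called genes named in the text kept their direction in every alternative run for the KI effect, and 166 of them stayed past the threshold in each. The count of called genes, 2870 as reported, lay between 2756 and 3616 under another pseudocount, other filters, total-sum or quantile scaling, the GC content and length correction, a robust prior and sample weights. It was 6050 with all 64 libraries in one fit, where the spread came from all groups. The share of called genes that were higher was 49.0% as reported and 39.2% with the GC content and length correction. The median log2 fold change of all genes stayed within 0.05 of 0 in each setting. Leaving out 1 library gave from 1456 genes (without WT replicate 1) to 3205 (without KI replicate 1) for the KI effect, from 242 (without hippocampal WT replicate 1) to 800 (without hippocampal KI replicate 4) for the region difference, and from 0 to 156 (without KI replicate 4 of PWK 14) for the age difference.

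With the replicate block, which fits the replicate number as a term, 1788 genes were called for the KI effect, 1742 of them among the 2870, and 2 for the age difference, and 876 were called for the region difference with a block for each genotype and number. That last block takes same-numbered hippocampal and cortical libraries of a genotype as 1 mouse, which is assumed and not stated per sample. The numbers are not stated to pair KI with WT mice, and same-numbered KI and WT libraries deviated with correlations of 0.108, 0.00216, 0.160 and -0.260, so that the pairing by number is not shown. Same-numbered hippocampal and cortical libraries deviated with correlations of -0.0412 to 0.456 in KI and 0.00242 to 0.225 in WT mice.

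The balance of higher and lower members changed side in at least one setting for homeostatic astrocyte, neuropeptide receptor, interneuron, AMPA auxiliary, synaptic vesicle, calcium channel, calcium-binding, CA3, endothelial, oxidative phosphorylation, cAMP and meningeal lists, and the cause was not tested. The lists of reactive astrocyte, neuropeptide, activity effector, matrix, cholesterol, sodium and potassium channel, CA1, dentate, circadian and splicing genes kept theirs. The depth is unknown, so that genes with means near 1 rest on few reads, and 4 libraries per group limit the smaller effects.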

Other observations

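Of 44 cytosolic ribosomal protein genes 0 rose and 3 fell, *Rps15* (-0.25), *Rpl30* (-0.26) and *Rpl37* (-0.36), where 15.6% of all genes were called. With a correction for GC content and length 0 rose and 11 fell, and without KI replicate 1, 1 rose and 7 fell. Of 31 genes of the unfolded protein, heat shock and integrated stress responses 5 rose and 1 fell (19.4% called), with the small heat shock protein *Hspb1* (1.84), also a reactive astrocyte gene, the furthest. Of 16 metallothionein and zinc transporter genes the metal buffer *Mt2* (1.23) and the zinc importer *Slc39a14* (0.71) rose and the metal exporter *Slc30a10* fell (-0.55), which is 18.8% called, and without KI replicate 1, 5 rose and 1 fell.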
